A study of Spermophilus dauricus with 30 samples.

Results

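In skeletal muscle of Daurian ground squirrels, 45 of 26378 numeric identifiers in a table of RNA sequencing counts had their lowest level in summer activity, in both muscles that were sampled. They were chosen by their own levels. Counts were divided by median-of-ratios size factors, which put the 30 libraries on one scale and give the normalised counts used throughout, and the median of the 3 libraries of each group was taken. An identifier was kept if each of its other 4 state medians was at least 100 normalised counts and at least 1.5 times the summer median, in SOL and in EDL. Any comparison with summer activity in these identifiers is therefore a description and was not tested. None of the files gives a gene name for an identifier, so what these genes do is not stated here, no more than 4 identifiers are given by number, and, as gene lengths are not given either, counts of different identifiers are compared only as shares of the reads, not as levels of expression.

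The Daurian ground squirrel (Spermophilus dauricus) is a small hibernator. In hibernation such animals pass through bouts of torpor, with a low body temperature and little movement, broken by short arousals in which the body rewarms, and their muscles keep much of their mass through months of disuse. The soleus is a postural muscle rich in slow fibres, and the extensor digitorum longus is a fast muscle. The libraries came from animals labelled summer active (SA), prehibernation (PRE), hibernation (HIB), interbout arousal (IBA) or posthibernation (POST), with 3 libraries marked SOL and 3 marked EDL in each state, the usual abbreviations of those muscles. All carry the genotype entry WT and one treatment entry, spelled "hibernarion", summer active animals included. Age, sex, body temperature and the animal behind each library are not given in the labels, so the p-values below measure the spread between these libraries. The labelled tissue could not be checked against muscle markers, because no identifier is paired with a name.

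Libraries held 31442362 to 41972200 counts, size factors ran from 0.747 to 1.40, and the lowest normalised count of any of the 45 identifiers in any library was 19.0. Libraries of POST SOL varied most: over the 10481 numeric identifiers whose medians outside SA were all at 100 or more, the median coefficient of variation (CV) among 3 libraries was 0.275 there and 0.134 to 0.144 in the other 4 SOL groups. The SOL and the EDL library with the same state and number deviated together from their group means, with a correlation of 0.152 to 0.741 over 15 pairs. The 2 muscles of a state are therefore not independent sources for one pattern.

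Outside SA the identifiers typically stood a little over 2 times their SA level. The geometric mean of the 8 ratios to the SA medians, 4 states in 2 muscles, ran from 1.67 to 9.17 with a median of 2.30. The smallest of the 8 ratios reached 2 in 7 identifiers and 3 in 2 of them. By muscle, the geometric mean of the 4 ratios had a median of 2.14 in SOL and 2.25 in EDL. It was under 2 for 13 identifiers in SOL and 11 in EDL, and at least 3 for 6 in SOL and 5 in EDL. For 40 of the 45 identifiers the SOL and the EDL value lay within 1.5 times of each other. These are bulk samples, so fewer cells of a type and less RNA per cell cannot be told apart.

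**Figure D1:**
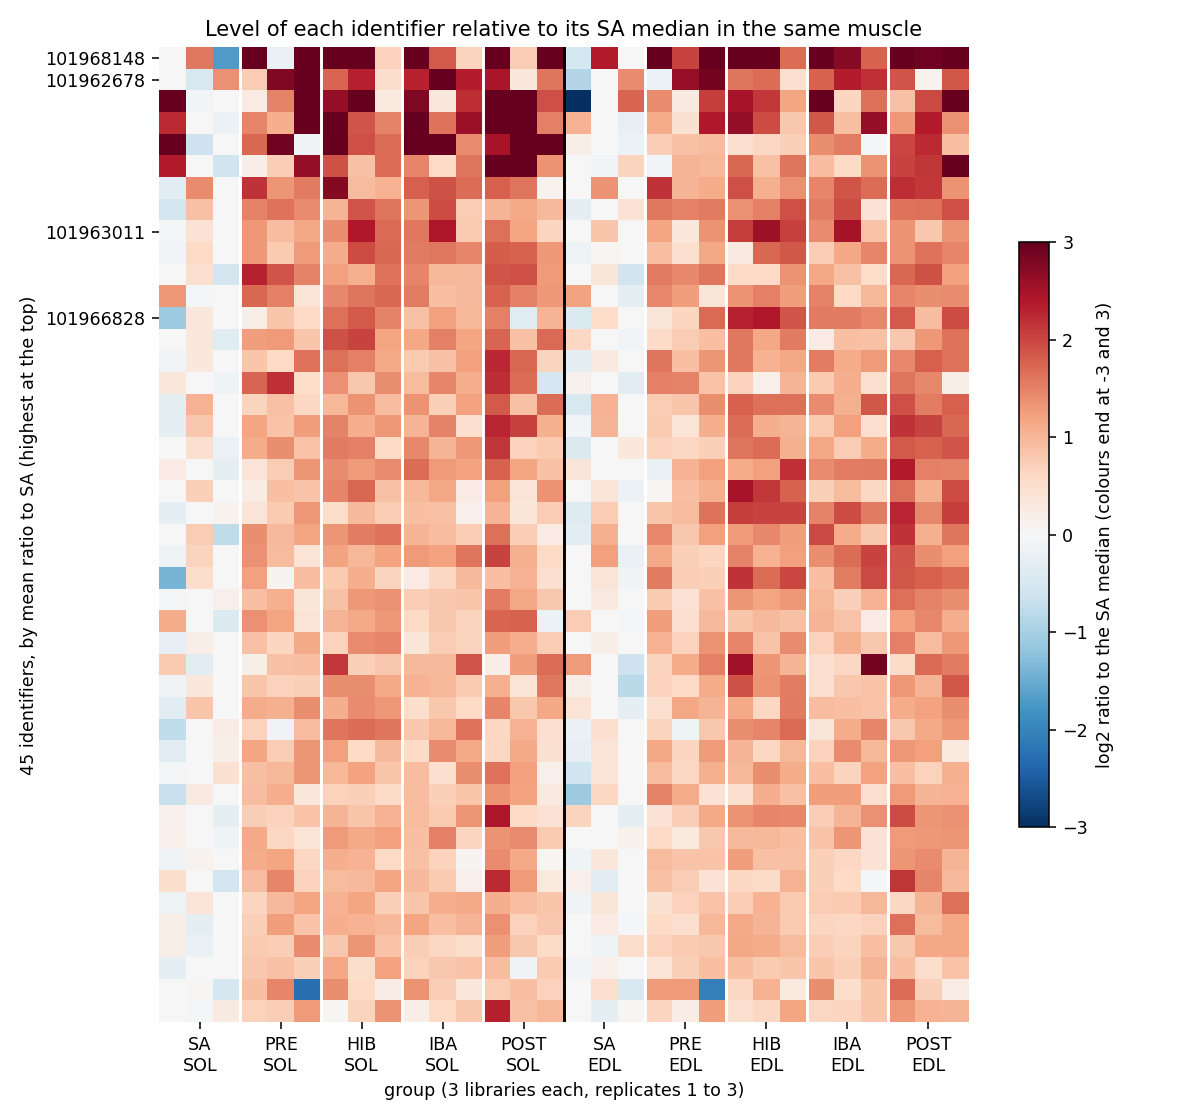
Heat map of the 45 identifiers (rows, ordered by the geometric mean ratio to SA) in 30 libraries (columns, 3 per group, SOL left of EDL). Colour is the log2 ratio of the library's normalised count to the SA median of the same muscle. Most fields outside SA are red, with a few pale or blue fields in single libraries. The 4 identifiers with SA SOL replicate 1 above 3 times their SA SOL median show as red fields in the first column.

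Across the states the excess over SA was not of one size. The median of the 45 ratios to SA in SOL was 1.94 for PRE libraries, 2.45 for HIB, 1.98 for IBA and 2.28 for POST. The EDL medians were 1.93 for PRE libraries, 2.45 for HIB, 1.997 for IBA and 2.71 for POST. The medians of PRE and IBA thus sat nearest to SA in both muscles, and those of HIB and POST farthest from it. In SOL the place of POST leaned on POST SOL replicate 1. Without that library the median log2 fold change of POST against PRE was -0.01 in the edgeR fit given below, against 0.21 with it. The highest ratio of any identifier was 16.1, in HIB SOL, and the next was 15.996, in PRE EDL, both from the same identifier. The ratio that came closest to the threshold was in PRE for 18 identifiers, in IBA for 14, in HIB for 7 and in POST for 6, and for none of the 45 was it in POST EDL.

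**Figure D2:**
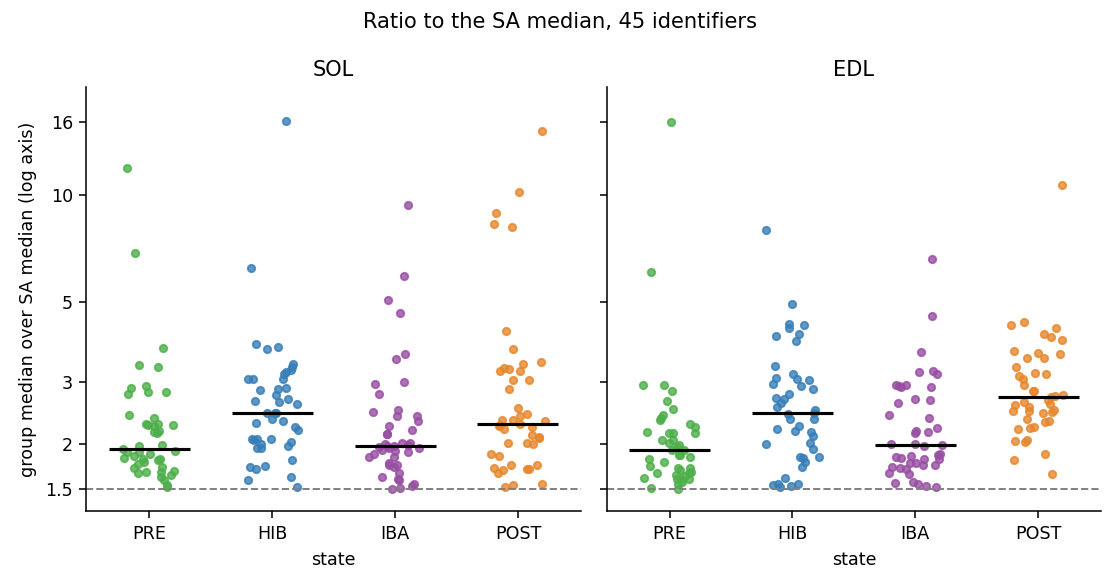
Ratio of each group median to the SA median of the same muscle (log axis) for the 45 identifiers, 1 point each, in SOL (left) and EDL (right). Horizontal bars are the medians over identifiers, and the dashed line is the threshold of 1.5 that selected them. The bars for HIB (2.45 in both muscles) and POST (2.28 in SOL and 2.71 in EDL) lie above those for PRE and IBA, which run from 1.93 to 1.997.

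The threshold lay in a continuous range of values. The 3 identifiers just inside it had a smallest ratio of 1.501, 1.504 and 1.508, and the 3 just outside had 1.493, 1.465 and 1.464. At any level of expression 186 identifiers passed the 1.5-fold condition, and 141 of these had a median outside SA under 100. The lowest such median was 105 among the 45 that were kept, and the nearest below the limit was 98.1. Fewer identifiers met the same condition for being lowest in PRE (21), IBA (12) or POST (20), and more for being lowest in HIB (51). The mirrored condition, highest in SA in both muscles, was met by 94. It asked for at least 100 normalised counts in the SA medians only, so 94 and 45 do not come from equal pools. In 1 muscle alone, 156 identifiers were lowest in SA in SOL and 142 in EDL, the 45 included.

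The identifiers given by number were those with the largest smallest ratio, 101968148 and 101962678, and those with the lowest mean log2 fold change of POST against HIB, 101963011 and 101966828. In SOL, 101968148 had 127, 379 and 39.5 normalised counts in SA, 1519, 111 and 1568 in PRE, 2147, 2046 and 206 in HIB, 1541, 457 and 203 in IBA, and 1946, 216 and 1035 in POST. In EDL it had 30.1, 227 and 43.4 in SA, 920.2, 176 and 694 in PRE, 898, 346 and 137 in HIB, 1031, 288 and 148 in IBA, and 502, 328 and 461 in POST. The identifier that differed most from SA by its medians was thus uneven within most groups, POST EDL being the most even. In SOL, each other state had 1 library under the highest SA library, so that 8 of 12 libraries lay above all SA libraries, and in EDL 9 of 12 did. The low libraries were PRE replicate 2, HIB replicate 3 and IBA replicate 3 in both muscles, and POST replicate 2 in SOL. Its geometric mean ratio was 9.17, the highest of the 45.

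For 101962678 the SOL libraries held 109.6, 78.5 and 283 normalised counts in SA, 187, 751 and 919 in PRE, 368, 549 and 159 in HIB, 541, 872 and 557 in IBA, and 598, 136 and 332 in POST. The EDL libraries held 69.2, 126 and 337 in SA, 112, 770 and 929 in PRE, 383, 404 and 178 in HIB, 432, 642 and 579 in IBA, and 465, 137 and 462 in POST. SA replicate 3 was the highest SA library in both muscles, and 1 library of PRE, HIB and POST each fell below it in both. Only IBA among the 4 states lay wholly above SA in both muscles.

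Much of the membership changed when single libraries were left out. With each of the 30 libraries left out in turn, 28 to 48 identifiers met the rule. The median of the remaining pair in a group is the same as its mean, so the measure changed along with the data. The lowest count, 28, came without SA EDL replicate 1, and 25 of those 28 belonged to the 45. Without SA EDL replicate 3, 30 met the rule, 23 of them from the 45. Without SA SOL replicate 1 it was 31, with 29 from the 45, and without SA SOL replicate 3 it was 31, with 28 from the 45. Only 7 identifiers met the rule in all 30 of these reductions, with a smallest ratio of 1.72 to 3.58 in the full data. Of the identifiers given by number, 101968148, 101962678 and 101963011 are among those 7, and 101966828 was lost in 7 of the 30.

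The identifiers had higher median CVs than the 10481 in all 10 groups. Their median CV among the 3 SA libraries was 0.306 in SOL and 0.286 in EDL, against 0.142 in SOL and 0.149 in EDL over the 10481 identifiers. The median CVs of the 4 other states were 0.180 to 0.355 for SOL, against 0.134 to 0.275 over the 10481, and 0.198 to 0.238 for EDL, against 0.141 to 0.177. The highest SA library held a median of 1.65 times the lowest in SOL and 1.69 times the lowest in EDL, and over 3 times in 8 identifiers in SOL and 5 in EDL. The lowest SA library was replicate 1 for 22 identifiers in SOL and 21 in EDL, replicate 2 for 8 in SOL and 6 in EDL, and replicate 3 for 15 in SOL and 18 in EDL. Over the 10481 it was replicate 1 for 3853 in SOL and 3621 in EDL, and replicate 2 for 3770 and 3561. Replicate 3 was lowest for 2858 and 3299. The highest SA library was replicate 2 for 51.1% of the 45 in SOL and 55.6% in EDL, against 25.7% and 38.8% of the 10481. In 26 of 45 identifiers, 57.8%, the same number was lowest in both muscles, against 51.0% of the 10481. In 4 identifiers, SA SOL replicate 1 stood above 3 times the SA median, and in none did replicate 2 or 3 of SA SOL.

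Taken library by library, many identifiers overlapped with SA. All 12 libraries outside SA lay above all 3 SA libraries for 18 of 45 identifiers in SOL and 19 in EDL, against 3.9% and 2.01% of the 10481. In both muscles this held for 12 of 45, against 0.83% of the 10481. The geometric mean ratios of these 12 ran from 1.81 to 2.72, while those of all 45 reached 9.17, and 3 of them are among the 7 that no single library removed. In SOL the 3 PRE libraries lay above all SA libraries for 28 identifiers (19.2% of the 10481), the HIB libraries for 34 (21.5%), the IBA libraries for 28 (14.5%) and the POST libraries for 23 (10.6%). In EDL the counts were 23 for PRE (11.4%), 36 for HIB (15.2%), 30 for IBA (9.25%) and 38 for POST (16.1%). The rule used these same libraries, so nothing follows from the higher shares among the 45.

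The rule did not ask which of the 4 other states stood highest. It did choose the identifiers by these same medians, so the shares below are a description and were not tested. By group median, 6 identifiers stood highest in SOL before hibernation (PRE), 19 during HIB, 5 during IBA and 15 at POST. As shares of the 45 these were 13.3% for PRE, against 30.2% of the 10481, 42.2% for HIB, against 24.4%, 11.1% for IBA, against 20.8%, and 33.3% for POST, against 24.6%. The EDL counts were 4 for PRE, 13 for HIB, 3 for IBA and 25 for POST. As shares these were 8.89% for PRE, against 26.1% of the 10481, 28.9% for HIB, against 24.6%, 6.67% for IBA, against 20.5%, and 55.6% for POST, against 28.8%. No identifier of the 45 had its lowest of the 4 medians in POST EDL, against 24.9% of the 10481. The muscles had the same highest state for 22 identifiers, 48.9%, against 50.3% of the 10481, and these were 3 with PRE highest, 8 with HIB, 1 with IBA and 10 with POST. The highest of the 4 medians was typically 1.57 times the lowest in SOL and 1.73 times in EDL, against 1.38 in SOL and 1.40 in EDL over the 10481.

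The rule set PRE, HIB, IBA and POST against SA but not against each other. It did use their medians, and the SA libraries of a muscle share in the estimate of spread below. Comparisons among these 4 states were tested with edgeR's quasi-likelihood test over all identifiers that passed its filter on low counts, 16443 in SOL and 16299 in EDL. All 45 identifiers passed the filter, and an identifier was called at a Benjamini-Hochberg adjusted p under 0.05. The filter also lets in identifiers under the rule's minimum of 100, so the shares of all identifiers below come from a wider set. Of the 8 comparisons, 1 gave a call among the 45, in HIB against PRE in EDL. No identifier of the 45 fell in any of them by this test.

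HIB against PRE sets hibernation against the time before it. In SOL the median log2 fold change over the 45 identifiers was 0.18, with 33 values above 0, and edgeR called none, against 0.0365% of all identifiers. There 4 of 45 had an unadjusted p under 0.05, against 12.8% of all, and DESeq2's Wald test called none, against 2.11%. In EDL the median was 0.30 with 34 values above 0, against 50.1% of all. The edgeR test called 1 there, higher in HIB, against 0.73% of all. Without adjustment 13 of 45, 28.9%, had a p under 0.05, against 19.5% of all, and DESeq2 called 7, all higher, against 6.45%.

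The identifier called in EDL had 4509, 3483 and 2762 normalised counts in HIB, against 844, 1507 and 1678 in PRE. The 3 HIB libraries lay above all PRE libraries, with a log2 fold change of 1.42 ± 0.27 (SE) and an adjusted p of 0.0390 by edgeR. The adjusted p was 0.0596 with only the 6 compared libraries in the fit, and from 0.0443 to 0.131 with 1 of these libraries left out, under 0.05 in 1 of 6. In SOL the same identifier had 2043, 2442 and 1356 in HIB, against 864, 1379 and 1349 in PRE, groups that overlap, with a log2 fold change of 0.70 ± 0.32 and an adjusted p of 0.379. In IBA EDL it had 1330.4, 1547 and 1247, all below the HIB libraries, with a log2 fold change of -1.39 ± 0.27 against HIB and an adjusted p of 0.147 by edgeR and 0.00128 by DESeq2.

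IBA against HIB sets arousal between torpor bouts against hibernation. The median log2 fold change was -0.16 in SOL, with 12 of 45 values above 0, and -0.23 in EDL, with 14 above 0. Over all identifiers 51.3% of values were above 0 in SOL and 50.1% in EDL. In SOL edgeR called none of the 45, against 0% of all identifiers, 2 had an unadjusted p under 0.05, against 6.63%, and DESeq2 called none, against 0.2%. In EDL edgeR called none, against 0.0307% of all, 5 had an unadjusted p under 0.05, against 10.5%, and DESeq2 called 1, lower in IBA, against 0.89%. Most values were thus negative in both muscles without passing edgeR's test. In this and the other comparisons the 45 values come from the same few libraries, so a common sign is not 45 separate observations.

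For POST against HIB the median was -0.02 in SOL, with 19 of 45 values above 0, and 0.16 in EDL, with 30 above 0. The shares above 0 over all identifiers were 52.4% in SOL and 51.3% in EDL. In SOL edgeR called none of the 45, against 0.0122% of all identifiers, with 3 at an unadjusted p under 0.05, against 8.53%, and none by DESeq2, against 1.04%. In EDL edgeR called none, against 0.215%, with 6 at an unadjusted p under 0.05, against 16.8%, and 1 called by DESeq2, higher in POST, against 4.85%. Without POST SOL replicate 1 the SOL median was -0.18.

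The values of POST against PRE, the time after hibernation against the time before it, were the most one-sided of the 4 comparisons in EDL. In SOL 31 of 45 log2 fold changes were above 0, against 51.7% of all identifiers, with a median of 0.21. By edgeR none of the 45 was called in SOL, against 0% of all. There 4 had an unadjusted p under 0.05, against 10% of all, and DESeq2 called none, against 1.03%. Without POST SOL replicate 1 the SOL median was -0.01. In EDL 41 of 45 were above 0, against 50.4% of all identifiers, with a median of 0.48 and a range of -0.77 to 1.89. None was called by edgeR, against 0.0675% of all, 18 had an unadjusted p under 0.05, which is 40% against 12% of all, and DESeq2 called 5, all higher, against 1.58%.

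**Figure D3:**
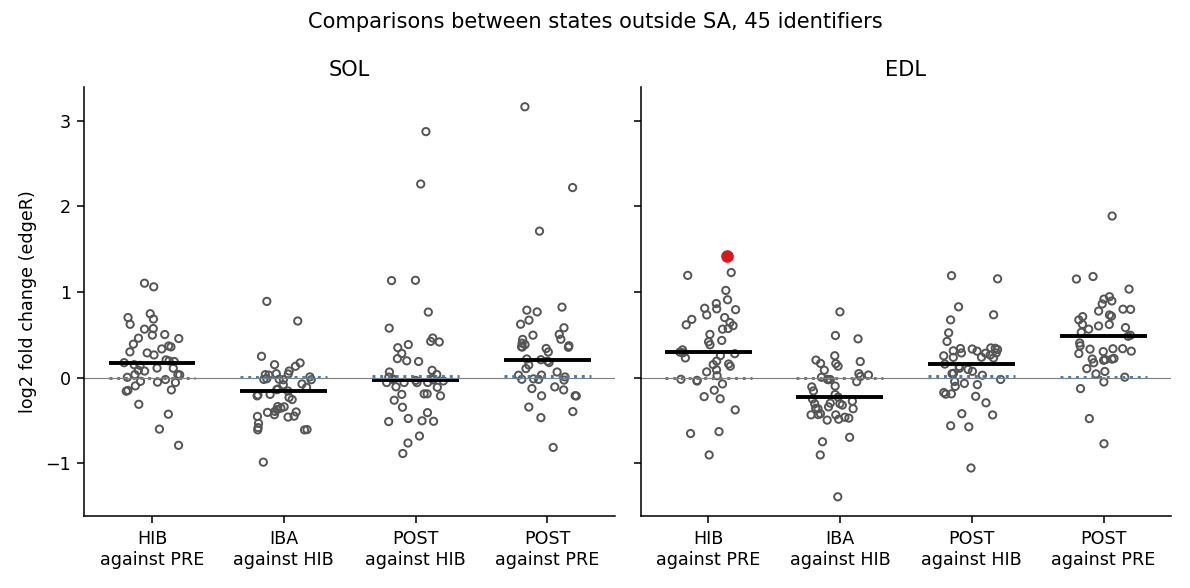
Log2 fold changes (edgeR) of the 45 identifiers in the 4 comparisons between states outside SA, in SOL (left) and EDL (right). Open circles were not called, and the filled circle, in HIB against PRE in EDL, was called at an adjusted p under 0.05. Black bars are the medians over the 45, and dotted bars the medians over all tested identifiers, which lie near 0. In POST against PRE in EDL, 41 of 45 circles lie above 0.

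The identifiers with the lowest mean log2 fold change of POST against HIB did not pass the test in either muscle. Picking them this way favours high HIB libraries, so their HIB levels against the other states are not free of that choice. In SOL, 101963011 had 271, 380.5 and 279.8 normalised counts in SA, 694, 531 and 629.8 in PRE, 734, 1474 and 905 in HIB, 836, 1491 and 482 in IBA, and 880.5, 634 and 439 in POST. In EDL it had 258, 461 and 254 in SA, 588, 323 and 651 in PRE, 1089.7, 1489 and 1060.0 in HIB, 690.3, 1447 and 467 in IBA, and 655, 452 and 661 in POST. In SOL all 12 other libraries exceeded every SA library, and in EDL 10 of 12 did, PRE replicate 2 being below the highest SA library and POST replicate 2 just below it. The 3 POST EDL libraries lay below all 3 HIB EDL libraries. The log2 fold change of POST against HIB was -0.68 ± 0.36 (SE) in SOL, with an adjusted p of 0.650 by edgeR, and -1.05 ± 0.37 in EDL, with an adjusted p of 0.178. HIB against PRE gave 0.75 ± 0.36 in SOL, with an adjusted p of 0.406 by edgeR, and 1.23 ± 0.38 in EDL, with an adjusted p of 0.107.

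For 101966828 the SOL libraries held 497, 1332 and 1053 normalised counts in SA, 1191, 1877 and 1597 in PRE, 3319, 3756 and 2931 in HIB, 1941, 2468 and 2110.2 in IBA, and 3008, 816 and 2121 in POST. The EDL libraries held 309.7, 616 and 420.3 in SA, 541, 653 and 1370.2 in PRE, 2083, 2204 and 1552 in HIB, 1242, 1233 and 1149.9 in IBA, and 1515, 797 and 1645 in POST. In both muscles the 3 HIB libraries lay above all PRE and all IBA libraries, in an identifier picked by its HIB level against POST. The log2 fold change of HIB against PRE was 1.10 ± 0.39 (SE) in SOL, with an adjusted p of 0.269 by edgeR, and 1.19 ± 0.34 in EDL, with an adjusted p of 0.0948. POST against HIB gave -0.76 ± 0.39 in SOL, with an adjusted p of 0.631 by edgeR, and -0.57 ± 0.34 in EDL, with an adjusted p of 0.403. The lowest POST library was replicate 2 in both muscles, and in SOL it lay below the SA median.

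**Figure D4:**
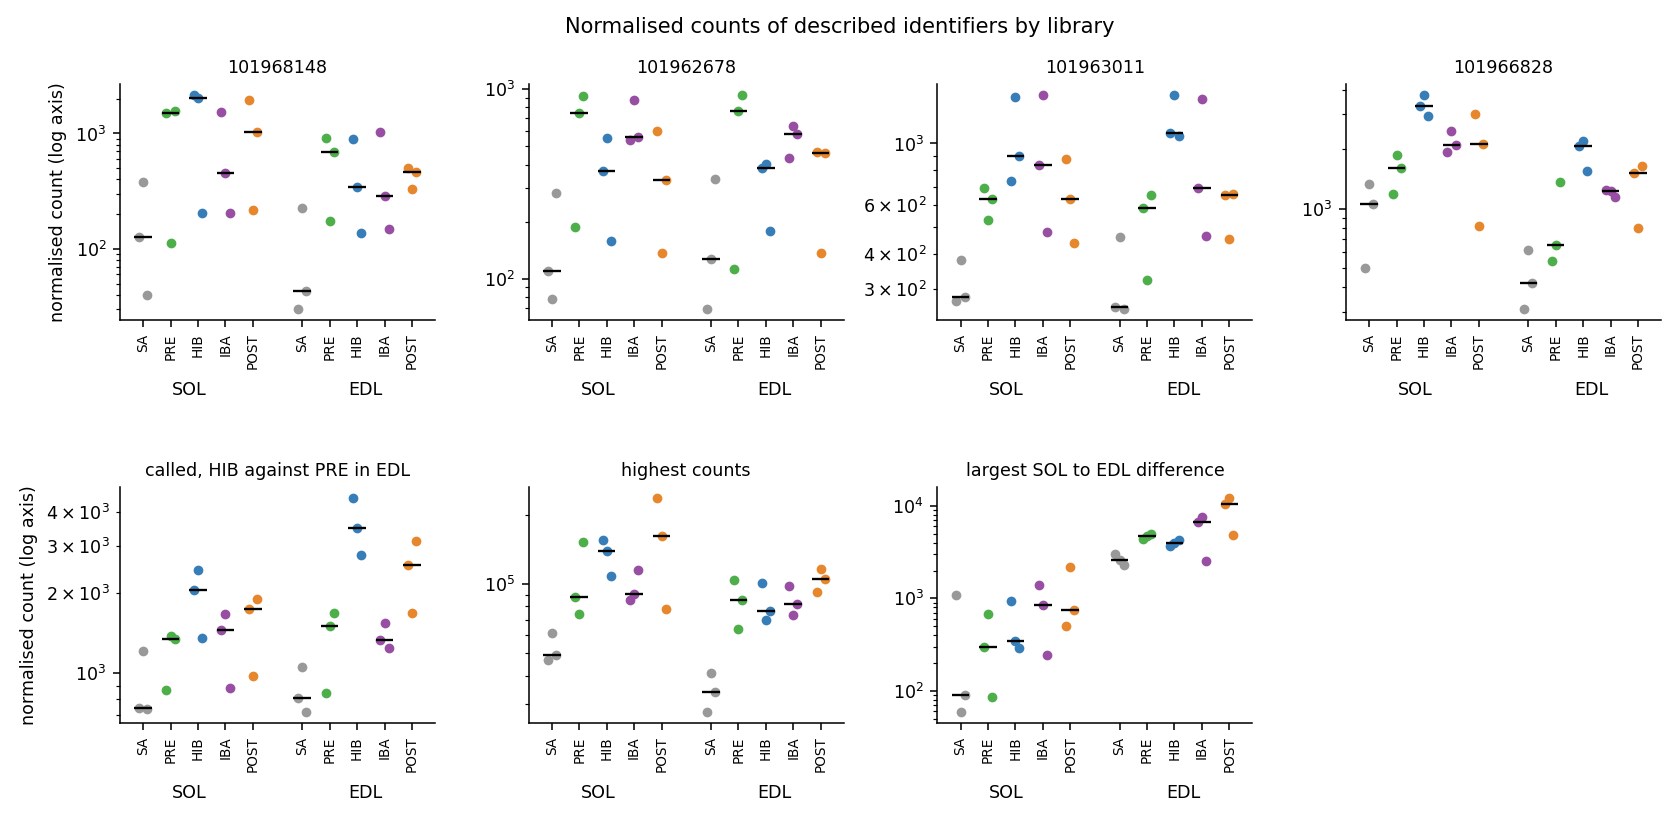
Normalised counts (log axis, each panel with its own range) by library for the 4 identifiers given by number and for 3 others described without a number. Each group has 3 points, 1 per library, and a bar at the median, in the order SA, PRE, HIB, IBA and POST, SOL left of EDL. SA bars are the lowest in each muscle and panel, while single points of other states reach the SA range in all panels except that of the identifier with the highest counts.

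Over the 5 states, SOL against EDL was tested in 1 fit of all 30 libraries and 16946 identifiers, which did not pair the SOL and EDL libraries. Of the 45 identifiers 13 were called by edgeR, 28.9%, against 28.9% of all identifiers, with 6 higher and 7 lower in SOL. The 16946 also hold identifiers under the rule's minimum of 100, so these shares do not come from like sets. The 6 had log2 differences of 0.47 to 0.86. Of the 7, the lowest were -3.01 and -1.74, and the other 5 ran from -0.63 to -0.27. With the number within a state as a replicate block, 21 of 45 were called, 11 higher and 10 lower in SOL and all 13 among them, against 40.7% of all identifiers. Without any 1 of the 30 libraries, 10 of the 13 were called every time.

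The identifier with the largest difference between muscles had 85.1 to 2191 normalised counts in the 12 SOL libraries outside SA, against 59.1, 91.0 and 1091 in SA SOL. In EDL it had 2529 to 12122 outside SA, against 2302, 2589 and 2994 in SA. Every EDL library thus held more than any SOL library. The log2 difference of SOL against EDL was -3.01 ± 0.38 (SE), with an adjusted p of 1.22e-06 by edgeR, and -3.50 to -2.91 with 1 library left out. With the replicate block the difference was -3.42 ± 0.32. In SOL only 2 of 12 libraries lay above all SA libraries, because SA replicate 1 held 1091, and in EDL 11 of 12 did.

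Of the identifiers given by number, 101966828 was higher in SOL, with a log2 difference of 0.84 ± 0.17 (SE) and an adjusted p of 0.000635 by edgeR. With the replicate block its difference was 0.83 ± 0.096, with an adjusted p of 7.14e-06 by edgeR. For 101968148 the difference was 1.06 ± 0.47 with an adjusted p of 0.0950 by edgeR, and 0.87 ± 0.21 with an adjusted p of 0.00391 in the fit with the replicate block, where it was called. For 101962678 it was 0.06 ± 0.31 with an adjusted p of 0.911, and for 101963011 it was 0.05 ± 0.17 with an adjusted p of 0.865, and neither was called with the block.

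**Figure D5:**
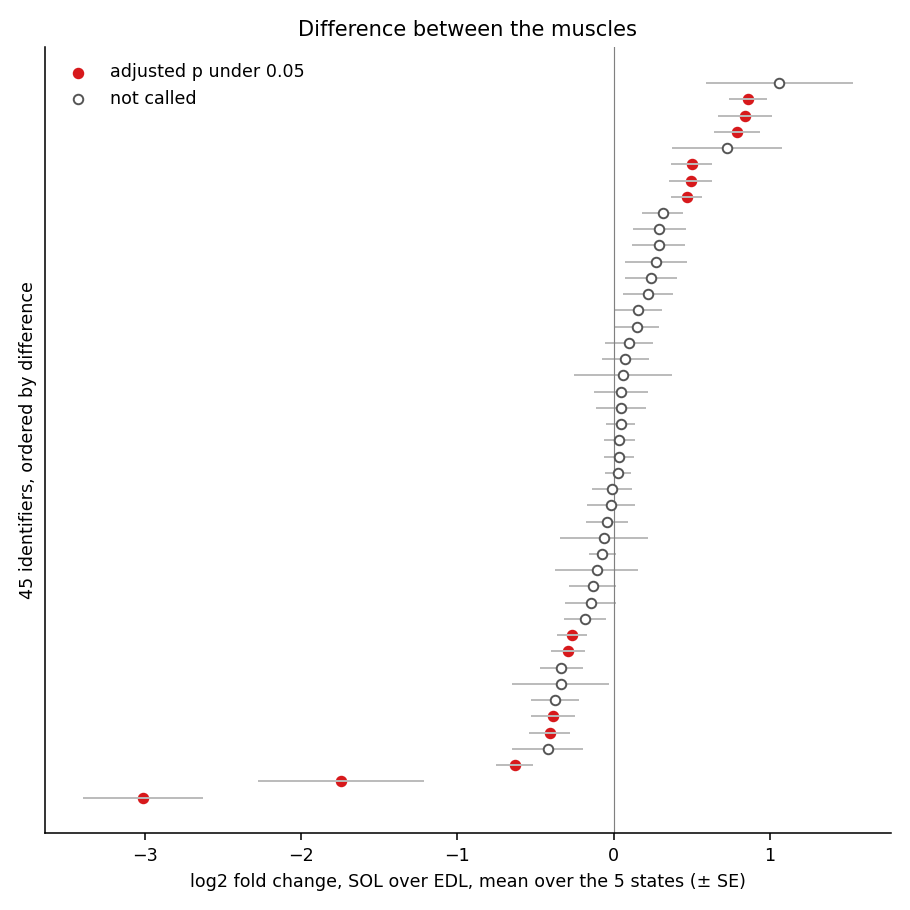
Log2 difference of SOL against EDL, averaged over the 5 states, for each of the 45 identifiers, with bars of 1 SE. Filled points were called by edgeR at an adjusted p under 0.05, in the fit without the replicate block. The called identifiers lie on both sides of 0, with 6 on the right and 7 on the left, and the lowest, at -3.01 and -1.74, stand apart from the rest.

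No difference between the muscles was called in how the 45 identifiers moved between states. The difference of the log2 fold change, SOL minus EDL, had a median of -0.09 for HIB against PRE, 0.04 for IBA against HIB, -0.14 for POST against HIB and -0.26 for POST against PRE. By edgeR 0 of 45 were called in each of the 4, against 0% of all identifiers each. That fit took no account of the pairing of SOL and EDL libraries. With the replicate block the counts among the 45 stayed the same. At an unadjusted p under 0.05 there was 1 for HIB against PRE, against 1.3% of all, and there were 0 for IBA against HIB, against 1.03%, 0 for POST against HIB, against 2.84%, and 2 for POST against PRE, against 2.72%. DESeq2 also called 0 of 45 in each, against 0.00434% of all identifiers for HIB against PRE and 0% for the other 3. These tests take each identifier on its own. The medians over the 45, such as 0.21 in SOL and 0.48 in EDL for POST against PRE, were not themselves tested between the muscles.

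By share of the library, 1 identifier outweighed all the others together in each of the 10 groups. The 45 held a median of 0.214% of a library's counts in the SA group of SOL, while the PRE group had 0.333%, HIB 0.489%, IBA 0.393% and POST 0.552%. The median share in EDL was 0.148% for SA, 0.309% for PRE, 0.335% for HIB, 0.343% for IBA and 0.392% for POST. Without the most abundant identifier, the SOL shares were 0.0555% for SA, 0.0858% for PRE, 0.108% for HIB, 0.101% for IBA and 0.104% for POST. The EDL shares were then 0.0492% for SA, 0.0894% for PRE, 0.128% for HIB, 0.104% for IBA and 0.119% for POST.

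That most abundant identifier separated SA from the rest in every library. It had 74502 to 236915 normalised counts in the 12 SOL libraries outside SA, against 46646, 61423 and 49323 in SA SOL. In EDL it had 63745 to 117012 outside SA, against 27736, 41079 and 33939.5 in SA. The spread was widest in POST SOL, with 236915, 161574 and 77937. It was higher in SOL over the 5 states, with a log2 difference of 0.49 ± 0.14 (SE) and an adjusted p of 0.00809 by edgeR.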

How the data were processed

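The authors deposited raw whole-number counts for 27394 identifiers, 26378 of them plain numbers and 1016 with a text prefix. RNA extraction used AG RNAex and library preparation a NEBNext Ultra kit, per the labels' protocols. HISAT2 2.0.4 and HTSeq 0.9.1 are the tools named, per the submitters' processing notes. Build, annotation and strand setting were not given in the sources used here. Genes with close copies, and overlapping or antisense genes, therefore have uncertain counts.

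Size factors were medians of ratios over the 15391 identifiers without a zero in 30 libraries. Tests were run in R 4.3.3 with edgeR 4.0.16 (filterByExpr with a minimum count of 10, TMM, quasi-likelihood F test, Benjamini-Hochberg threshold 0.05). State comparisons used the 15 libraries of 1 muscle, and muscle comparisons all 30. SE is the log2 fold change divided by the square root of F. DESeq2 1.42.0 and further alternatives are given in the closing section, and the code was tested on simulated data.

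The identifiers and the rules for naming them (the 2 with the largest smallest ratio, the 2 with the lowest mean log2 fold change of POST against HIB) were chosen with earlier results of these data known. The 3 others described were picked after their values were seen. No columns were identical, and replicate pairs differed by 73.1 to 601 times the degrees of freedom in chi-square. Within a state, SOL and EDL libraries with the same number were treated as pairs in the replicate block, as read from the data (correlation above 0.1 in 15 of 15 pairs), since the labels do not say so. Numbers do not pair states: same-numbered libraries of different states had median correlations of 0.02 in SOL and -0.02 in EDL.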

Additional observations from a re-analysis of the deposited data

Results flagged for a closer look

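In 1 of the 45 identifiers, all POST libraries lay below all PRE libraries in SOL and above all of them in EDL. The same opposite separation was seen in 14 of the 10481 numeric identifiers with medians of at least 100 outside SA, this one included, or 0.134%. In SOL it had 187, 205 and 182 normalised counts in POST, against 259, 289 and 246 in PRE. In EDL it had 244, 251 and 302 in POST, against 235, 222 and 233 in PRE. The difference of the log2 fold change, SOL minus EDL, was -0.66 ± 0.48 (SE), with an adjusted p of 0.9999 by edgeR, so a difference between the muscles was not called.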

How the results depend on the processing

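The number of identifiers that met the rule was 7 at a fold of 2, 139 at a fold of 1.3 and 186 with no minimum, and 28 to 48 with 1 library left out. A minimum of 50 gave 64, a minimum of 200 gave 31, scaling by total counts 31, TMM 43 and means in place of medians 48, of which 28 were among the 45. For HIB against PRE in EDL, 0 were called with the replicate block, whose numbers do not pair states, and 0 with only the compared libraries, and 0 to 1 were called with 1 library left out. DESeq2 called 7 there, and in EDL 1 for IBA against HIB, 1 for POST against HIB and 5 for POST against PRE. POST against HIB in EDL gave 0 to 1 with 1 library left out. The replicate block raised the SOL against EDL calls to 21, all 13 included, and apart from these 2 comparisons it changed no count of calls. Over all identifiers, DESeq2 called 1054 against 119 by edgeR for HIB against PRE in EDL, and 358 against 6 in SOL. The causes were not tested.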

Other observations

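The rule was set for numeric identifiers. Among identifiers with a text prefix, 11 met the same condition for being lowest in SA in both muscles, and 0 met the mirrored condition for being highest in SA. These 11 are 5.76% of the 191 prefixed identifiers whose medians outside SA were all at 100 normalised counts or more, while the 45 are 0.429% of the 10481 numeric ones. The smallest of the 8 ratios to SA ran from 1.52 to 2.57 in the 11, with a median of 1.70, and their geometric mean ratios ran from 2.05 to 3.40. The difference between the shares was not tested, since the values that chose the identifiers also make up the shares.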
